A study of Mus musculus with 6 samples.

Results

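The genes described here are 5 genes of natural killer T (NKT) cell development, chosen by name from the pathway: Zbtb16, Cd1d1, Slamf1, Slamf6 and Sh2d1a. All 5 were found among the 22298 genes of the tables, each under 1 Ensembl identifier. Transcripts were measured by RNA sequencing in thymocytes of C57BL/6 mice, in 3 libraries of the genotype Toxf/f (controls) and 3 of Toxf/fCd4Cre, with no treatment. Both genotypes carry the loxP-flanked Tox alleles, and only the latter carries Cre recombinase under Cd4 regulatory sequences, so that Tox loss and the presence of Cre cannot be told apart. Age at sampling was 4 weeks for replicate 1 and 3 weeks for replicates 2 and 3 in either genotype. It is not stated whether a library is 1 mouse or a pool, so the p-values measure the spread between these libraries only.

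NKT cells are T cells with a largely invariant receptor that recognises lipids held by CD1d, a relative of MHC class I. In the thymus they are selected not on epithelium but on other cortical thymocytes, which display CD1d. During that contact the SLAM receptors of both cells bind each other, and the small adaptor SAP carries the signal inward to the kinase Fyn. The selected cells then switch on the transcription factor PLZF, which gives them their innate-like effector character.

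Library totals were 14550593 to 16099023 estimated counts. Tox itself, the check of the genotype labels, was at 99.2 to 109 CPM (counts scaled to library size by TMM) in the controls and at 10.2 to 15.1 CPM in the Toxf/fCd4Cre libraries. The titles name double-negative cells and the protocol names DN2 cells, but transcripts of later cortical thymocytes were abundant. Rag1 was at 4932 ± 148 and Cd8a at 1712 ± 49.3 CPM in controls (SD, n = 3). The DN2 markers Kit, Cd44 and Il2ra, the gene of CD25, were at 20.4 ± 2.49, 42.7 ± 7.4 and 96.4 ± 6.21 CPM in controls. Sums of 10 double-positive thymocyte markers were 10870 to 11130 CPM in controls and 11610 to 12340 CPM in Toxf/fCd4Cre. The median log2 fold change of these markers was 0.163, against 0.01 over all tested genes. The part of double-positive cells in the values of the 5 genes was not tested. Control replicate 2 held 3740 counts of 4 Y-linked genes and the other libraries 2 to 5. Leaving out Toxf/fCd4Cre replicate 3 raised the number of genes past the test from 572 to 1269, so values that rest on that library are given with and without it.

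None of the 5 genes passed the genotype test (edgeR quasi-likelihood, adjusted p 0.05 over 13934 genes), where 4.11% of all tested genes passed, 1.15% being higher and 2.96% lower in Toxf/fCd4Cre. At an unadjusted p of 0.05, 1 of the 5 passed, Zbtb16, against 16.3% of all tested genes. Neither DESeq2 nor limma-voom called any of the 5. Log2 fold changes ran from -0.04 to 0.41 with a median of 0.11, and the median over all tested genes was 0.01. Since the libraries are bulk samples, fewer cells of a type and less RNA per cell cannot be told apart in any of these values.

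**Figure D1:**
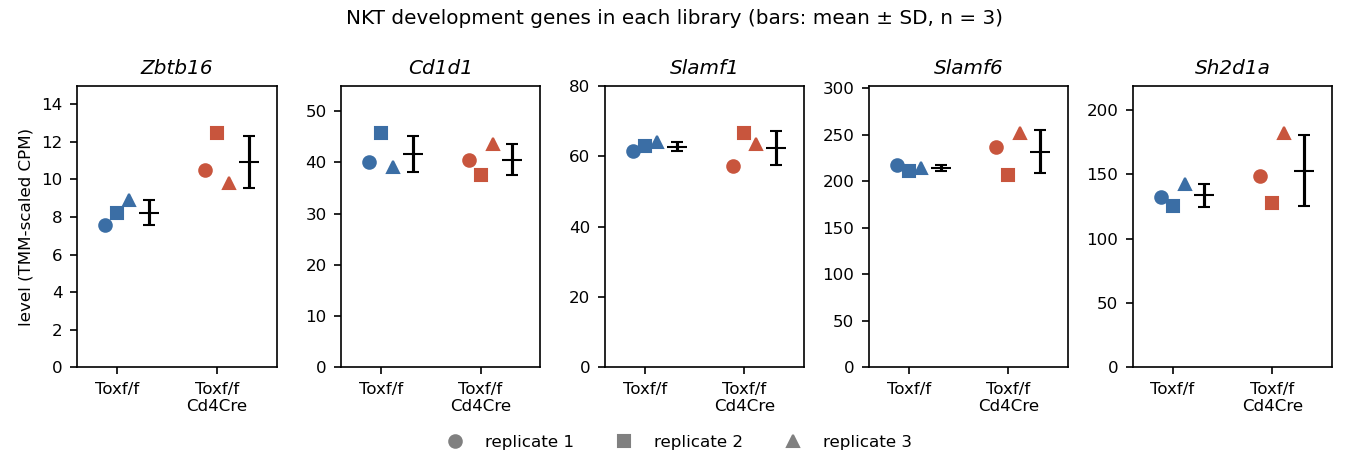
Level of each of the 5 genes (TMM-scaled CPM, linear axes from 0) in 3 Toxf/f and 3 Toxf/fCd4Cre libraries; marker shapes are replicate numbers and the bars are the mean ± SD. Zbtb16 is the 1 gene whose groups do not overlap (7.59 to 8.92 against 9.81 to 12.5 CPM).

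Per transcript length, the adaptor gene was the most abundant of the 5 and the PLZF gene the least. In the deposited FPKM values the control means were 152 ± 8.48 for Sh2d1a, 98.3 ± 2.7 for Slamf6, 23.4 ± 0.293 for Slamf1, 21.5 ± 1.94 for Cd1d1 and 1.78 ± 0.108 for Zbtb16 (SD, n = 3). Only 3.26% of tested genes stood above Sh2d1a in the controls and 5.63% above Slamf6, whereas 78.3% stood above Zbtb16. The order of Sh2d1a, Slamf6 and the remaining genes was the same in all 6 libraries, and Zbtb16 was last in each. Slamf1 and Cd1d1 did not differ beyond their spread: the Cd1d1 to Slamf1 FPKM ratio was 0.918 ± 0.0804 in controls and 0.904 ± 0.11 in Toxf/fCd4Cre, and it passed 1 in control replicate 2 alone.

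**Figure D2:**
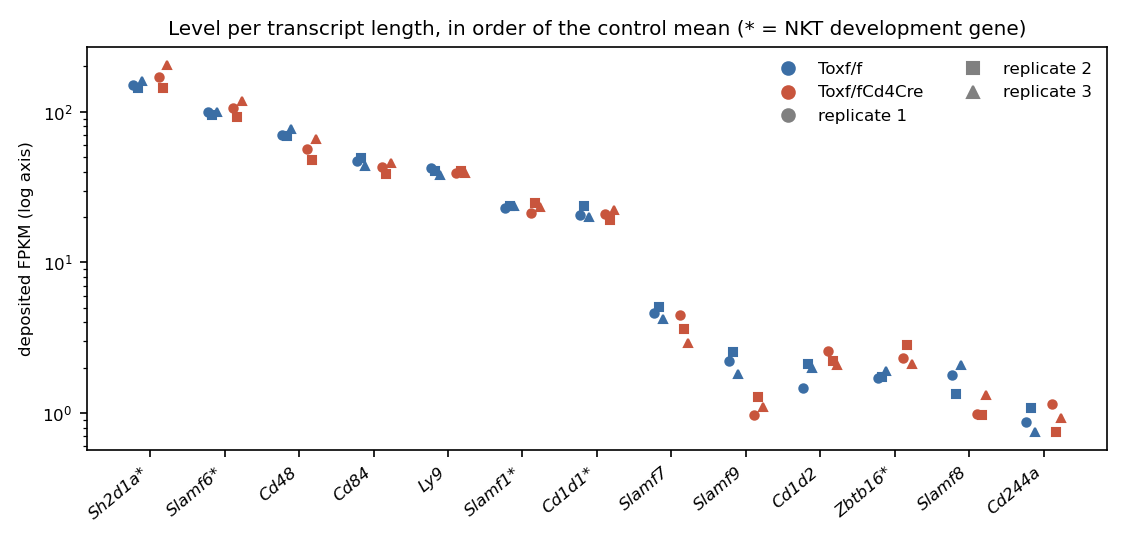
Deposited FPKM (log axis) of the 5 genes (asterisks), the other SLAM receptor genes and Cd1d2 in each library, ordered by the control mean; colours are genotypes and shapes are replicates. Sh2d1a and Slamf6 lie highest, Slamf1 and Cd1d1 overlap near 20 FPKM, and Zbtb16 lies near 2 FPKM.

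Zbtb16 (ENSMUSG00000066687) encodes PLZF, the zinc finger factor that directs NKT cells and is also made by some innate-like gamma-delta T cells and by precursors of innate lymphoid cells. Its level was 7.59, 8.2 and 8.92 CPM in control replicates 1 to 3 and 10.5, 12.5 and 9.81 CPM in the Toxf/fCd4Cre libraries. All of the latter lay above all of the former, a pattern that 11.3% of tested genes showed in this direction. The means were 8.23 ± 0.664 and 10.9 ± 1.38 CPM (SD, n = 3). This is a difference of 0.41 on the log2 scale (SE 0.14), and the 95% interval of the fold, not adjusted for the number of genes, was 1.08 to 1.64. The difference did not pass after adjustment (edgeR quasi-likelihood adjusted p = 0.153). The two-sided exact permutation p was 0.1, and 3 libraries against 3 can give none smaller.

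The counts behind these values are small, 118, 120 and 134 in the controls and 166, 200 and 141 in Toxf/fCd4Cre, so counting alone gives a coefficient of variation of about 8.26% in a library. The observed coefficients were 8.07% and 12.6%. Without Toxf/fCd4Cre replicate 3 the log2 fold change was 0.48 (adjusted p = 0.0589), and without replicate 2 of that genotype, its highest library, it was 0.30 (adjusted p = 0.336). In the 3-week libraries alone it was 0.38 (adjusted p = 0.674). Deposited FPKM values were 1.7, 1.73 and 1.9 against 2.31, 2.84 and 2.12. Thus the direction was the same in these subsets, and none of them passed the test.

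Markers of gamma-delta T cells and of NK and innate lymphoid cells were read in the same libraries, and not all cells of these types express PLZF. Of 12 tested gamma-delta T cell markers 7 rose and 1 fell by edgeR, beside 1.15% and 2.96% of all tested genes. DESeq2, limma-voom and limma on log2(FPKM + 0.1) called 8 each. The summed level of these markers was 653 to 664 CPM in controls and 950.1 to 1005 CPM in Toxf/fCd4Cre. Of 12 tested markers of NK and innate lymphoid cells 5 rose and none fell by edgeR, beside the same shares of all tested genes. The other tools, in the order above, called 6, 5 and 4. Sums of this list were 168 to 171 and 187 to 218 CPM. The 5 that rose by edgeR were the receptor genes Klrk1 (means of 1.97 and 11.2 CPM), Klrb1c (2.35 and 10.1 CPM) and Klra1 (0.397 and 2.18 CPM), with Gzmb (3.34 and 8.53 CPM) and Il18rap (3.87 and 8.72 CPM). Of the 7 that did not pass, Kit, Eomes, Il1rl1, Prf1 and Tbx21 had negative log2 fold changes (-0.489, -0.555, -0.437, -0.283 and -0.224). Gzma and Gata3 had positive ones (0.247 and 0.085). DESeq2 called Kit lower. Ncr1 (0.111 and 0.304 CPM) and Klre1 (0.111 and 0.337 CPM), also on this list, were under the filter on low counts and not tested. Klre1 had 3, 2 and 10 counts in Toxf/fCd4Cre replicates 1 to 3. No marker was at 0 in every library. The part of gamma-delta, NK and innate lymphoid cells in the Zbtb16 values was not tested.

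**Figure D3:**
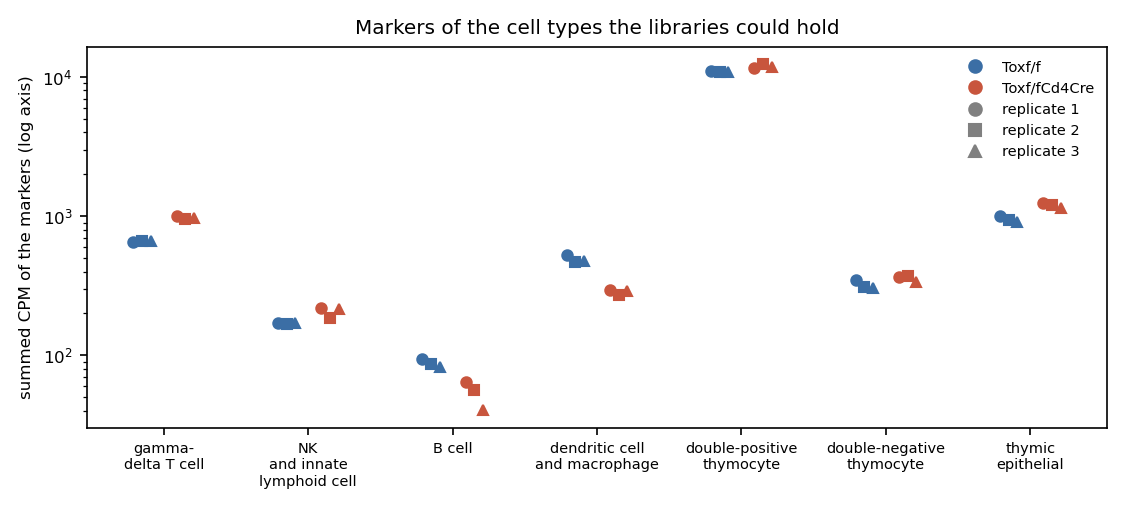
Summed CPM (log axis) of the markers of 7 cell types in each library; colours are genotypes and shapes are replicates. The gamma-delta sums of the Toxf/fCd4Cre libraries (950.1 to 1005) all lie above those of the controls (653 to 664), while B cell and dendritic or macrophage sums lie below. The NK, double-positive and epithelial sums also lie above, and the double-negative sums overlap.

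Cd1d1 (ENSMUSG00000028076) encodes the lipid-presenting molecule itself. It was at 40, 45.8 and 39.2 CPM in control replicates 1 to 3 and at 40.4, 37.5 and 43.6 CPM in Toxf/fCd4Cre. The ranges of the groups overlapped in part, with the highest library a control and the lowest a Toxf/fCd4Cre library. The log2 fold change was -0.04 (SE 0.09, adjusted p = 0.874 by edgeR), and the 95% interval of the fold was 0.846 to 1.12. Its sign turned when control replicate 2 or Toxf/fCd4Cre replicate 2 was left out (0.03 and 0.01).

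Mouse CD1d has a near copy, Cd1d2, its neighbour on chromosome 3, and reads of the copies can be shared. The estimated counts of Cd1d1 were not whole numbers in any library (621.66 in control replicate 1, for example). Of all distinct stretches of 100 bases in annotated Cd1d1 transcripts (GENCODE M21), 10.5% also occur in Cd1d2 transcripts. The longest identical coding stretch, 245 bases, is shown since reads within it cannot be assigned to either gene by sequence. It spans coding bases 691 to 935 of the 1008-base coding sequence of Cd1d1 (GRCm38), in capitals, with 10 Cd1d1 bases on each side in lower case.
Cd1d1: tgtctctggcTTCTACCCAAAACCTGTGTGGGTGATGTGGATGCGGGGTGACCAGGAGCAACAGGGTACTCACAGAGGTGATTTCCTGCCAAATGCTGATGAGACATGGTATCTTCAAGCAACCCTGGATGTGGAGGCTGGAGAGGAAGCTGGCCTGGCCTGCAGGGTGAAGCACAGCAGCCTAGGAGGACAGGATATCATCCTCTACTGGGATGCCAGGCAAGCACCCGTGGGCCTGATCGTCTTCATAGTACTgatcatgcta

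Cd1d2, which C57BL/6 mice carry in a form regarded as non-functional, was listed far below Cd1d1, with control libraries at 2.82 ± 0.553 CPM and Toxf/fCd4Cre libraries at 3.52 ± 0.353 CPM (SD, n = 3). Its log2 fold change was 0.32 (SE 0.22, edgeR quasi-likelihood adjusted p = 0.508). The copies differed in the sign of their changes, and neither passed.

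Of 14 genes of CD1d and lipid antigen presentation, 1 fell by edgeR, none rose and 13 did not pass (median log2 fold change 0.03), where 4.11% of all tested genes passed and 2.96% fell. DESeq2 called 2 of the 14 (B2m lower, Ctsl higher), limma-voom 1 (B2m) and limma on log2(FPKM + 0.1) 0. The 1 was B2m, the light chain that CD1d shares with MHC class I, at 1227, 1291 and 1119 CPM in controls, against 940.9, 901.7 and 994.2 CPM in Toxf/fCd4Cre. These groups did not overlap, which 10.6% of tested genes showed in this direction. The log2 fold change was -0.36 (SE 0.08, edgeR quasi-likelihood adjusted p = 0.0206), though the call was lost without control replicate 1 or 2 or Toxf/fCd4Cre replicate 1. Ctsl, the protease cathepsin L, which NKT selection needs, was at 1286 ± 40 and 1526 ± 33 CPM (n = 3, adjusted p = 0.0617 by the same edgeR test) and passed without Toxf/fCd4Cre replicate 3. Cortical thymic epithelium also expresses Ctsl. Of 8 epithelial markers 4 rose (Psmb11, Krt18, Krt5 and Krt8) and 1 fell (Krt14), beside 1.15% and 2.96% of all tested genes. Foxn1, Epcam and Aire did not pass (log2 fold changes of 0.127, -0.007 and -0.547). The summed level of the 8 markers was 901 to 1005 CPM in controls and 1151 to 1253 CPM in Toxf/fCd4Cre. Krt18 (338.9 CPM in controls) and Krt8 (320.5 CPM) were the most abundant of them. None was at 0 in every library, and the part of the 8 markers in the Ctsl value was not tested. Npc1, which moves cholesterol out of lysosomes, and Mttp, which loads lipid onto CD1d, had log2 fold changes of 0.15 and -0.30 and did not pass. The lysosomal saposin precursor gene Psap was at 934 and 954.8 CPM.

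The SLAM receptors Slamf1 and Slamf6 are those known to act in the selecting contact between cortical thymocytes. Slamf1 (ENSMUSG00000015316), which encodes CD150, was at 61.4, 63 and 64 CPM in control replicates 1 to 3. In Toxf/fCd4Cre it was at 57.2, 66.7 and 63.7 CPM. The control values lay inside the range of the Toxf/fCd4Cre values. Its log2 fold change, -0.007 (SE 0.08), was the smallest of the 5 (edgeR adjusted p = 0.979), and the 95% interval of the fold was 0.886 to 1.12. Its sign turned without control replicate 3 (0.007) or Toxf/fCd4Cre replicate 1 (0.05).

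Slamf6 (ENSMUSG00000015314), which encodes Ly108, was at 217.7, 210.7 and 214.4 CPM in control replicates 1 to 3 and at 236.6, 207.1 and 251.9 CPM in Toxf/fCd4Cre. Replicates 1 and 3 of the latter genotype lay above every control and replicate 2 below every control. The means were 214 ± 3.51 and 232 ± 22.8 CPM (SD, n = 3), and the log2 fold change of 0.11 did not pass (SE 0.08, edgeR quasi-likelihood adjusted p = 0.531, 95% interval of the fold 0.958 to 1.22). Without Toxf/fCd4Cre replicate 3 it was 0.05 and without replicate 2 it was 0.19 (adjusted p = 0.707 and 0.177 by the same edgeR test). In GENCODE M21 the span of an antisense gene covers the start of Slamf6, though no stretch of 100 transcript bases was shared with another gene, and the use of strand in counting is not given in the sources used here.

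Both genes lie in 1 cluster on chromosome 1, where RefSeq places Cd244a, Ly9, Slamf7, Cd48, Slamf1, Cd84 and Slamf6 in this order. The 250 bases before their annotated starts are shown since these neighbours differ in level (the Slamf1 to Slamf6 FPKM ratio was 0.238 ± 0.00846 in controls, n = 3) while neither passed the genotype test. The windows are from RefSeq (GRCm38.p6, plus strand), at chr1:171766882-171767131 for Slamf1 and chr1:171917212-171917461 for Slamf6, and the build of the deposited tables is not given in the sources used here. Capitals mark matches to the E-box CANNTG, which E proteins such as HEB and E2A bind.
Slamf1: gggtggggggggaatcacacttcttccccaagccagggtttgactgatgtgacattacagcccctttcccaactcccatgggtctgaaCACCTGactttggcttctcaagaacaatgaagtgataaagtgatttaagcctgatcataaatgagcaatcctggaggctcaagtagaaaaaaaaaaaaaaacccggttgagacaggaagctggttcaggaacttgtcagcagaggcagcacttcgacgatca
Slamf6: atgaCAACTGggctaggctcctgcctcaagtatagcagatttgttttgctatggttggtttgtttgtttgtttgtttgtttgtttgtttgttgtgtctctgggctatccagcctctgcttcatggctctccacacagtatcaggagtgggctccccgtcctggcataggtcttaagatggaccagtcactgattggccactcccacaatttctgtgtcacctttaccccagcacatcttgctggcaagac

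Each window held 1 E-box, CACCTG in Slamf1 and CAACTG in Slamf6, as a palindromic pattern read on both strands. Of 32851 RefSeq windows of this length, 66.2% held at least 1. The TCF/LEF core CTTTGA and the RUNX core TGTGGT, searched on both strands, were in neither window (13.8% and 14.0% of all windows). A match in these letters is a description and not a binding site.

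Across the SLAM family, 9 receptor genes were tested and none passed the edgeR test (3 at an unadjusted p of 0.05, none by DESeq2 or limma-voom, 1, Slamf9, by limma on log2(FPKM + 0.1)). Of all tested genes, 4.11% passed the edgeR test and 16.3% did so at an unadjusted p of 0.05. The median log2 fold change of the 9 receptor genes was -0.10. The smallest p belonged to genes other than Slamf1 and Slamf6. Slamf9, a receptor of myeloid cells, was at 2.89, 3.35 and 2.4 CPM in controls, against 1.27, 1.68 and 1.46 CPM in Toxf/fCd4Cre (log2 fold change -0.96, SE 0.25, edgeR quasi-likelihood adjusted p = 0.0555). Slamf8, also a myeloid gene, had a log2 fold change of -0.65. In the same libraries the summed dendritic cell and macrophage markers were at 466.5 to 525.4 CPM in controls and 272.9 to 295.4 CPM in Toxf/fCd4Cre. Of these 10 markers 1 fell (Lyz2), beside 2.96% of all tested genes, and none was at 0 in every library. The part of these markers in the Slamf8 and Slamf9 values was not tested.

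Cd48, the ligand of the receptor 2B4, was at 81.7, 81.5 and 91.5 CPM in controls, against 67.2, 57.3 and 79.3 CPM in Toxf/fCd4Cre. The groups did not overlap, which 10.6% of tested genes showed in this direction. The log2 fold change was -0.32 (SE 0.11, adjusted p = 0.144 by edgeR), and the gene passed when Toxf/fCd4Cre replicate 3 was left out. Cd84 and Ly9, self-binding receptors of the same cluster, had log2 fold changes of -0.12 and -0.003. The GENCODE M21 spans of Ly9 and Cd244a, introns included, overlap on opposite strands. Their estimated counts were whole numbers in every library, and whether their transcripts share sequence was not tested.

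**Figure D4:**
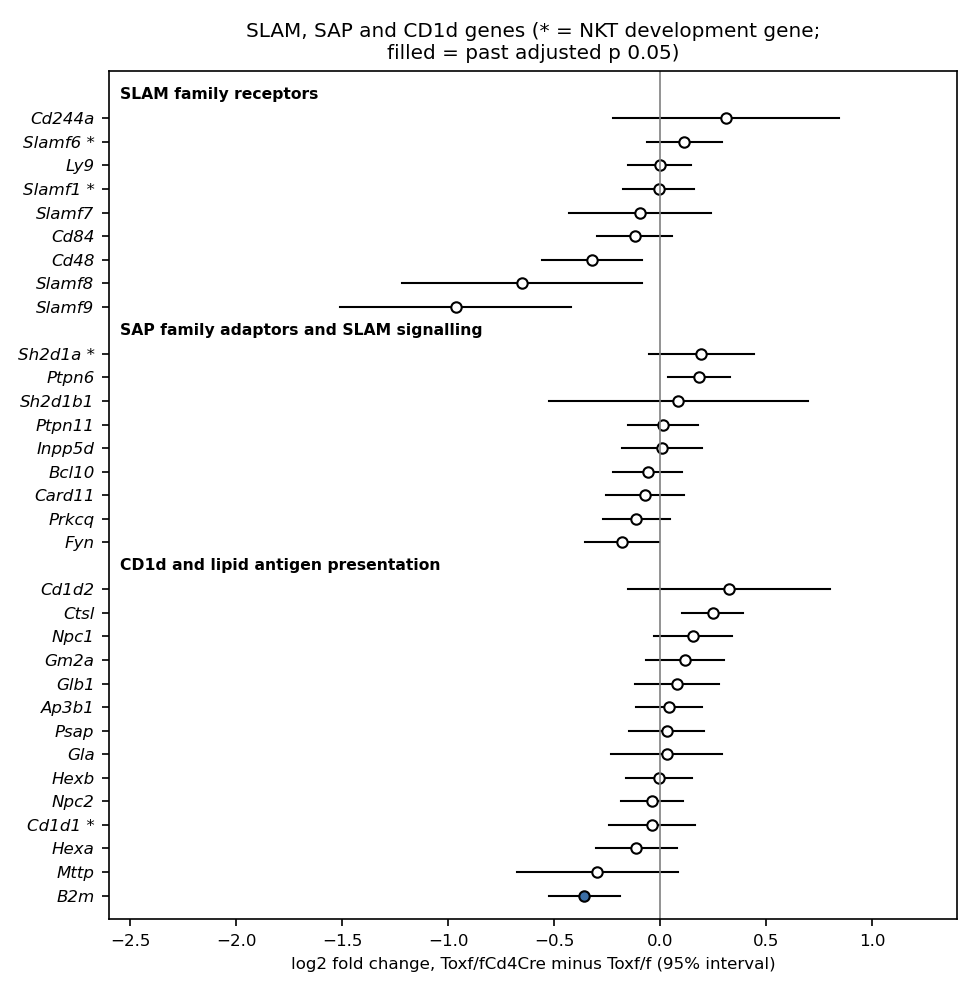
Log2 fold change, Toxf/fCd4Cre minus Toxf/f, with its 95% interval (not adjusted for the number of genes) for tested genes of the SLAM, SAP and CD1d lists; asterisks mark the 5 genes and filled points passed adjusted p 0.05. B2m is the 1 filled point (log2 fold change -0.36), and the intervals of Slamf1, Slamf6, Sh2d1a and Cd1d1 cross 0.

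Sh2d1a (ENSMUSG00000005696) encodes SAP, the SH2-domain adaptor that links SLAM receptors to Fyn and without which NKT cells do not develop. Its level was 132.3, 125.6 and 142.8 CPM in control replicates 1 to 3 and 148.7, 127.7 and 182.1 CPM in Toxf/fCd4Cre. Replicates 1 and 3 of the latter lay above all controls, and replicate 2 lay among them. The means were 134 ± 8.7 and 153 ± 27.4 CPM (SD, n = 3), and their log2 fold change was 0.19 (SE 0.11, adjusted p = 0.442 by edgeR, 95% interval of the fold 0.964 to 1.36).

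Most of that difference rested on 1 library. Without Toxf/fCd4Cre replicate 3 the log2 fold change of Sh2d1a was 0.05 (adjusted p = 0.749 by the edgeR test), and without replicate 2 it was 0.31 (adjusted p = 0.099). The coefficient of variation was 6.51% in controls and 17.9% in Toxf/fCd4Cre, against 2.14% from counting alone. Slamf6 had the same order among the Toxf/fCd4Cre libraries, replicate 3 highest and replicate 2 lowest, with coefficients of 1.64% and 9.82% against 1.72% from counting. For Slamf1 the coefficients were 2.07% and 7.8%, and for Cd1d1, the exception, 8.6% and 7.53%. Sh2d1a lies on the X chromosome, and control replicate 2, the library with Y-linked transcripts, was its lowest; without it the log2 fold change was 0.15.

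Estimated counts of Sh2d1a were not whole numbers either. The end of the gene overlaps Tenm1, a teneurin gene on the opposite strand, and 24.2% of the distinct 100-base stretches of its annotated transcripts are also in a Tenm1 transcript as the reverse complement. Zbtb16, Slamf1 and Slamf6 shared no such stretch with another gene. Tenm1 was listed at 116.68 to 146.04 counts a library against 1838.77 to 2616.96 for Sh2d1a.

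Of 9 tested genes of the SAP family and SLAM signalling, none passed the edgeR test (2 at an unadjusted p of 0.05, none by DESeq2 or limma-voom), with a median log2 fold change of 0.01. The shares of all tested genes were 4.11% by the edgeR test and 16.3% at an unadjusted p of 0.05. The kinase gene Fyn was at 165 ± 6.26 CPM in controls and 146 ± 13.2 CPM in Toxf/fCd4Cre (n = 3, edgeR adjusted p = 0.287). Ptpn6, the phosphatase SHP-1 that SLAM receptors recruit when SAP is lacking, was at 194 ± 4.54 and 220.3 ± 7.21 CPM (edgeR adjusted p = 0.188). Prkcq, a kinase downstream of SAP and Fyn, had a log2 fold change of -0.11. The SAP relative EAT-2, encoded by Sh2d1b1, was near 1 CPM in both genotypes (1.35 and 1.43), and its neighbour Sh2d1b2 was below the level tested.

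Of 24 transcription factors known from NKT development, Zbtb16 among them, 4 fell by edgeR, none rose and 20 did not pass (median log2 fold change 0.002), beside 2.96% of all tested genes that fell. DESeq2 called 7, of which 5 were lower and 2 (Id3 and Myb) higher, limma-voom called 4 and limma on log2(FPKM + 0.1) called 3, all lower. Zbtb7b, which encodes ThPOK, and Bach2, a repressor that restrains effector differentiation, had log2 fold changes of -1.62 and -1.53, and both passed with any 1 library left out. Lef1, a partner of TCF-1, and Relb, an NF-kB subunit, had changes of -0.47 and -0.53 and were lost without control replicate 1 or 2 or Toxf/fCd4Cre replicate 1, Lef1 also without control replicate 3. Egr2, which acts just before Zbtb16 in NKT cells, was at 29.4 ± 4.14 and 23.5 ± 2.4 CPM (n = 3, edgeR adjusted p = 0.201), and Egr1 was at 122.1 and 120.6 CPM. Tcf12, the gene of the E protein HEB, had a log2 fold change of 0.19 and did not pass.

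Genes of NKT subsets and their effector functions divided. Of 20 listed genes 17 were tested. Of these, 5 rose and 2 fell by edgeR, beside 1.15% and 2.96% of all tested genes, and 10 did not pass (median log2 fold change -0.06). DESeq2 called 8, limma-voom 6 and limma on log2(FPKM + 0.1) 6. Klrb1c, the gene of the marker NK1.1, rose from 2.35 ± 0.403 to 10.1 ± 2.56 CPM and Il18r1, an interleukin-18 receptor chain, from 12 ± 1.85 to 27.8 ± 8.62 CPM (n = 3, edgeR adjusted p = 0.000226 and 0.00511). Cxcr6, a receptor of tissue-homing NKT cells, was at 4.08 ± 0.777 and 9.85 ± 4.63 CPM, and its call, like that of Icos, was lost without any 1 of the controls or Toxf/fCd4Cre replicate 1. Fcer1g, the Fc receptor gamma chain gene, had a change of 0.55 and was lost without control replicate 2. Ccr7 and Ccr6 had log2 fold changes of -1.33 and -2.46.

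The hallmark cytokines were barely detected. Il4 had 7, 10 and 4 counts in control replicates 1 to 3 and 2, 1 and 5 in Toxf/fCd4Cre. Ifng had 1 to 5 counts and Il17a 0 to 6 counts in a library, and all 3 genes fell below the filter on low counts. Il13 was at 4.1 ± 0.628 and 2.34 ± 0.173 CPM (n = 3, edgeR adjusted p = 0.0534), and Il17rb, a receptor of the interleukin-4-producing subset, was at 32.5 and 31.9 CPM. Klrb1c, Ccr6 and Il23r of this list are also in the gamma-delta or NK lists above, so the lists are not independent of each other.

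**Figure D5:**
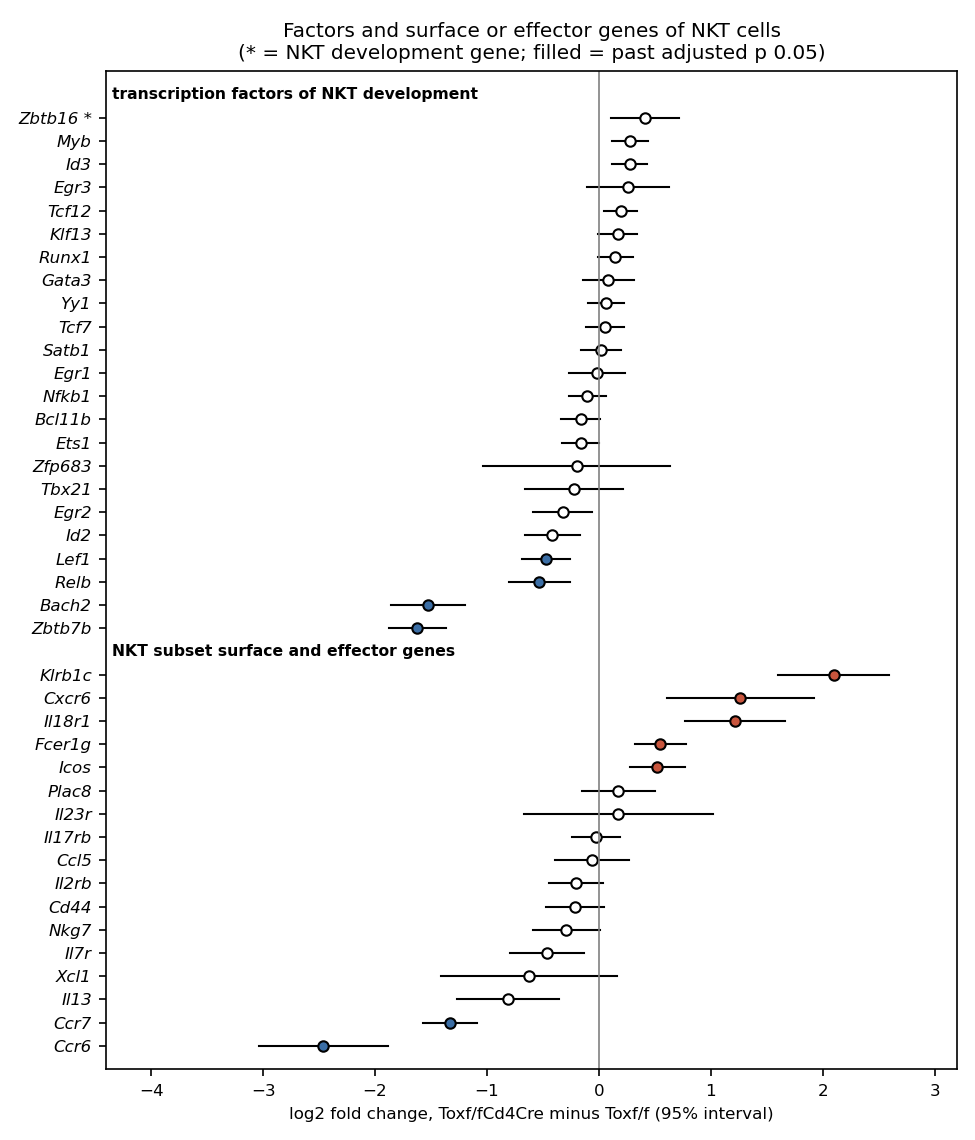
Log2 fold change, Toxf/fCd4Cre minus Toxf/f, with its 95% interval (not adjusted for the number of genes) for the tested transcription factors, all but 1, and surface or effector genes of NKT cells; filled points passed adjusted p 0.05, and the asterisk marks Zbtb16. Zbtb16 has the highest factor value plotted (0.41) and did not pass, while Zbtb7b (-1.62), Bach2 (-1.53) and Ccr6 (-2.46) lie lowest.

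The genes whose log2 CPM followed each of the 5 most closely over the 6 libraries were compared by Pearson's r among 10505 genes of at least 5 CPM. They were Bri3, Arfgap1 and Faap24 for Zbtb16 (r = 0.995, 0.994 and 0.993), Rab21 for Cd1d1 (0.993), Eif3j2 for Slamf1 (0.981), Adamdec1 for Slamf6 (0.994) and Wdr75 for Sh2d1a (0.994). With 6 libraries such values are common: 299 genes had r over 0.9 with Zbtb16, 151 with Sh2d1a, 142 with Slamf6, 50 with Cd1d1 and 30 with Slamf1. None of the 15 closest genes was another of the 5 or a gene of the SLAM, SAP or CD1d lists.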

How the data were processed

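Sorted thymocytes were sequenced as NEBNext Ultra RNA libraries (labels' protocols). The authors deposited estimated counts and FPKM values for 22298 Ensembl genes in each, per the file headers. Use of fastp 0.18.0, HISAT2 and StringTie 1.3.1 is recorded per the submitters' processing notes; the counting program, build, annotation and strand setting are not known from the sources used here. In 9.27% to 9.87% of genes the deposited estimated counts were not whole, and they were rounded here. Low genes were dropped by filterByExpr with a minimum count of 10 and a minimum total of 15, and the 13934 others were scaled by TMM and tested with edgeR 4.0.16 (glmQLFit, glmQLFTest) in R 4.3.3, two-sided, with Benjamini-Hochberg adjustment over all 13934. SE and 95% intervals were derived from the quasi-likelihood F. The deposited FPKM values were used for levels between genes and, as log2(FPKM + 0.1), in limma 3.58.1. DESeq2 1.42.0 and limma-voom were alternatives, as were other filters and scalings, leaving out each library, the 3-week libraries and a replicate block. Exact permutation tests used log2(CPM + 1). Named genes were the 5 genes, Tox, list genes by smallest p (up to 4 a list) and the 3 closest genes by correlation; any other gene named was chosen after its values were seen. The 5 genes and all lists were chosen with earlier results of these data known. Same-numbered libraries did not deviate together (correlations 0.085, -0.11 and -0.043), so the numbers were not taken as pairs. One gene of the transcription factor list is counted there but not reported here.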

Additional observations from a re-analysis of the deposited data

How the results depend on the processing

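None of the 5 genes passed under any of 17 alternative settings. Zbtb16, Slamf6 and Sh2d1a kept a positive log2 fold change in all 17 (0.297 to 0.481, 0.05 to 0.187 and 0.049 to 0.305), with adjusted p from 0.0589, 0.177 and 0.099 upward. Leaving out 1 library gave 0.303 to 0.481 for Zbtb16, 0.05 to 0.187 for Slamf6, 0.049 to 0.305 for Sh2d1a, -0.095 to 0.032 for Cd1d1 and -0.058 to 0.054 for Slamf1. The sign of Cd1d1 turned without control replicate 2 (0.032) or Toxf/fCd4Cre replicate 2 (0.012). That of Slamf1 turned without control replicate 3 (0.007) or Toxf/fCd4Cre replicate 1 (0.054) and in the 3-week libraries alone (0.038). With the replicate block the values were 0.406 (Zbtb16), -0.039 (Cd1d1), -0.009 (Slamf1), 0.11 (Slamf6) and 0.182 (Sh2d1a), with 440 genes past the test in place of 572. The block changed no call among the 5 genes. The number of genes past the test was 332 by limma on log2(FPKM + 0.1) with no filter, 151 in the 3-week libraries alone, which are fewer samples, and 298 to 1269 with 1 library left out.

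Chosen after seeing the data, the lists were recounted without control replicate 2 and without Toxf/fCd4Cre replicate 3. Over all tested genes, 298 of 14158 and 1269 of 14150 passed in these settings, in place of 572 of 13934. SLAM receptors had 0 and 1 calls (Cd48), the SAP list 0 and 0, CD1d and lipid presentation 0 and 2 (in place of 1), transcription factors 2 and 7 (in place of 4) and NKT surface and effector genes 4 and 8 (in place of 7). Gamma-delta markers had 8 calls both times, and NK and innate lymphoid markers 4 and 5. The cause of these moves was not tested. Depth limits Zbtb16 most, at 118 to 200 counts a library, and leaves Il4, Ifng and Il17a untested.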
